A study of Mus musculus with 9 samples.

Results

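The mouse mitochondrial genome was followed through 9 RNA-seq libraries of HC11 cells, a clonal mouse mammary epithelial line, in exposure groups named EpPT1 and EpPT2 and an untreated group named Ctrl, with 3 libraries in each. The genes were chosen by position alone: they are all 37 rows of the count table on chromosome MT, of 54532 rows in all, and comprise 2 ribosomal RNA genes, 13 protein genes and 22 transfer RNA genes. Both exposed groups received 660 nm light; by the sample labels EpPT1 had 10 J/cm2 and EpPT2 had 20 J/cm2, but the protocol text puts the fluences at 0.5 and 1 J/cm2 with 10 mW of power, and no dose is attached to the groups here. The protocol and the title speak of a laser and the design text of an LED. All groups share the line, bought from ATCC and labelled C57BL/6, and growth in DMEM with fetal bovine serum and penicillin-streptomycin. The sources used here do not say how long after exposure the cells were lysed. The labels do not say whether the replicates are separate cultures; each p-value therefore reflects only the spread among these libraries, which may be technical.

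The mitochondrial genome is a small circular DNA that is present in many copies per cell. Both of its strands are transcribed into long precursor RNAs, from which transfer RNAs, lying like punctuation between the other genes, are cut out to release ribosomal and messenger RNAs, so the level of each mature RNA also depends on processing and decay. The proteins it encodes are all subunits of oxidative phosphorylation: the mt-Nd genes belong to complex I, mt-Cytb to complex III, the mt-Co genes to complex IV and the mt-Atp genes to complex V. Complex IV, cytochrome c oxidase, is often named as an absorber of red light in studies of photobiomodulation, the treatment of cells with low-power light.

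The libraries held 14549787 to 17228929 counts, of which 2.74% to 7.48% fell on chromosome MT. Of the 7 epithelial markers checked, all 7 were detected in every library, with summed levels of 2531 to 3045 CPM in EpPT1, 2599 to 2956 in EpPT2 and 2026 to 3159 in Ctrl, although Cdh1, the epithelial cadherin, was at only 0.226 to 0.777 CPM. Summed fibroblast markers lay at 743 to 2097 CPM in EpPT1, 761 to 2123 in EpPT2 and 1302 to 3295 in Ctrl, mainly from Dcn. Of the other fibroblast markers, Pdgfra had 2.65 to 8.19 CPM, Col1a1 0.577 to 3.34 and Col3a1 0.239 to 1.72, while Lum and Col1a2 were at or near 0. Fat cell markers summed to 248 to 409 CPM in EpPT1, 231 to 292 in EpPT2 and 311 to 368 in Ctrl, nearly all from Lpl. Of the blood and immune markers, the macrophage gene Cd68 had 8.50 to 102 CPM over the 9 libraries. Adipoq, Plin1 and Cd3e were at or near 0. The part of other cell types in the mitochondrial values was not tested. CPM here are library-size-scaled counts after TMM, a correction for differences in composition between libraries. With such bulk RNA, a difference in the make-up of the culture and a difference in RNA per cell cannot be told apart.

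Several mitochondrial genes have near-identical copies in the nuclear genome, so the sequences decide how far their counts can be read. A block of copies on chromosome 1, between 24611535 and 24616197 on the minus strand (GRCm38), holds annotated pseudogenes of mt-Nd4, mt-Nd4l, mt-Nd3, mt-Co3, mt-Atp6, mt-Co2 and mt-Co1. The copies of mt-Nd4, mt-Nd4l, mt-Co3, mt-Atp6 and mt-Co2 were identical to the mitochondrial gene over all 876, 294, 783, 678 and 681 bases of the pseudogene. The copy of mt-Nd3, Gm28438, differed at 1 of 345 bases, T3C, counted from 1 at the 5′ end of the gene with the mitochondrial base first. The first 90 bases of mt-Nd3 and of its copy are shown with that base in capitals, and those of mt-Co2 (chrM:7013-7102, plus strand) are shown because its copy Gm28661 (chr1:24615476-24615565, minus strand) has the same letters throughout. All are from the GENCODE release M21 transcripts (GRCm38), written 5′ to 3′.
mt-Nd3 (chrM:9459-9548, plus strand): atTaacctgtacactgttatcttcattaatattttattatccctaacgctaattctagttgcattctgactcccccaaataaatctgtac
Gm28438 (chr1:24613030-24613119, minus strand): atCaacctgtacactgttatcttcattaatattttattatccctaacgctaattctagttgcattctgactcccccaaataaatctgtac
mt-Co2 and Gm28661: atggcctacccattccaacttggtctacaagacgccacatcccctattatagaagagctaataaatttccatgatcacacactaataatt

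The sources used here do not name the counter, its treatment of reads with several matches or its strand setting, so the counts of a gene and its copy are uncertain. Gm28438 had 713 to 2149 counts per library and mt-Nd3 27 to 72, so that the copy carried 95.1% to 98.1% of their sum. The copy held 53.5% to 80.3% of the sum for mt-Nd4l, 34.4% to 71.9% for mt-Atp6, 45.5% to 59.1% for mt-Co3 and 17.8% to 51.1% for mt-Co2. For mt-Co1, where the chromosome 1 copy Gm29216 covers bases 1054 to 1545 with 98.8% identity, that copy held 0.126% to 0.417%. Over all 9 copies that were counted, on chromosomes 1 and 2, the sum was 0.643% to 0.885% of the counts on chromosome MT. Reads that the counter may have dropped for having several matches are in neither number. How far the mitochondrial total, and the shares taken from it, depend on such reads is therefore not known. The 5 genes with almost all of their sequence in a copy were the ones for which the copy carried a large part of the counts.

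Levels per length spanned several orders of magnitude. mt-Co1, the catalytic subunit of complex IV, was highest at a mean of 19821 CPM per kb over the 9 libraries, before mt-Nd1 at 5517, mt-Nd2 at 3375 and mt-Cytb at 2943 CPM per kb. mt-Nd6, the protein gene of the light strand, had 1142 CPM per kb, close to mt-Nd5, its neighbour on the other strand, at 1199. The ribosomal RNAs mt-Rnr1 and mt-Rnr2 had only 554 and 447 CPM per kb. The sources used here do not say whether poly(A) RNA was selected or ribosomal RNA removed. The 5 genes with 98.0% to 100% of their 50-base windows in a copy were low, from 105 CPM per kb for mt-Co2 to 8.03 for mt-Nd3. With the counts of the copies added, mt-Nd3 reached 234 CPM per kb, mt-Atp6 210, mt-Co2 176, mt-Co3 139 and mt-Nd4l 41.5. mt-Atp8, the small subunit of complex V, was lowest of the protein genes at 4.49 CPM per kb without sharing any 50-base window with an annotated nuclear transcript. It overlaps mt-Atp6 by 43 bases, and the interval of 233 bases between the copies of mt-Atp6 and mt-Co2, longer than the 204 bases of mt-Atp8, holds 0 rows of the table.

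**Figure D1:**
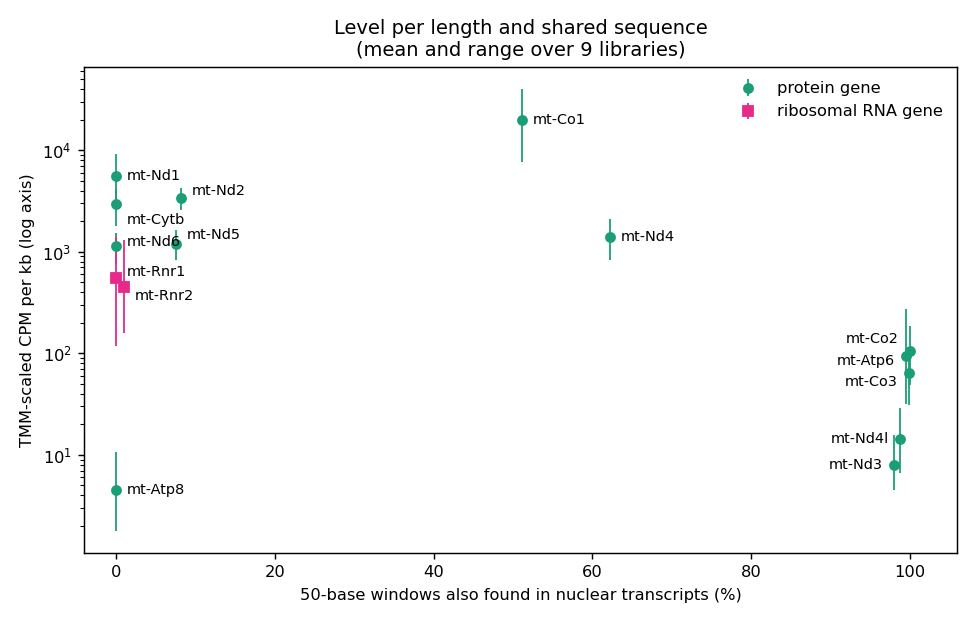
Level of each ribosomal RNA and protein gene in TMM-scaled CPM per kb (vertical log axis; point, mean of 9 libraries; line, lowest to highest library) against the percentage of its 50-base windows also found in nuclear transcripts. The genes at 98.0% to 100% sharing lie at 8.03 to 105 CPM per kb, below every gene other than mt-Atp8 that shares less.

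The share of all counts on chromosome MT did not separate the groups. It was 3.44%, 2.74% and 6.93% in EpPT1 replicates 1, 2 and 3, 3.38%, 6.06% and 6.94% in EpPT2, and 2.86%, 3.62% and 7.48% in Ctrl, with means of 4.37% ± 2.25, 5.46% ± 1.85 and 4.66% ± 2.48 (SD, n = 3 each). The 4 high libraries were EpPT1 3, EpPT2 2, EpPT2 3 and Ctrl 3, so that each group had at least 1 high and 1 low library. Protein genes took 97.5% ± 0.928 of the mitochondrial counts in EpPT1, 97.7% ± 0.588 in EpPT2 and 97.3% ± 1.49 in Ctrl. Ribosomal RNAs took 2.17% ± 0.959, 1.98% ± 0.601 and 2.37% ± 1.54, and transfer RNAs 0.331% ± 0.0468, 0.298% ± 0.0132 and 0.318% ± 0.0426 in the same groups. Complex IV genes supplied 56.3% ± 8.97 in EpPT1, 58.8% ± 10.5 in EpPT2 and 64.0% ± 9.96 in Ctrl, nearly all from mt-Co1. For each class the largest SD within a group exceeded the differences between these means.

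mt-Co1 dominated the composition. Its share was 61.1%, 45.4% and 61.4% of mitochondrial counts in EpPT1, 46.5%, 64.6% and 64.7% in EpPT2 and 56.3%, 59.8% and 75.1% in Ctrl. Ctrl 3 stood above the other 8 libraries, and EpPT1 2 and EpPT2 1 below the other 7. mt-Cytb ran the other way, with 7.15%, 13.2% and 6.67% in EpPT1, 12.9%, 6.30% and 6.61% in EpPT2 and 8.05%, 7.44% and 2.49% in Ctrl. Its share was thus highest in EpPT1 2 and EpPT2 1 and lowest in Ctrl 3. The count of mt-Co1 per count of mt-Cytb was 30.2 in Ctrl 3, against 3.43 to 10.3 in the other 8 libraries.

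**Figure D2:**
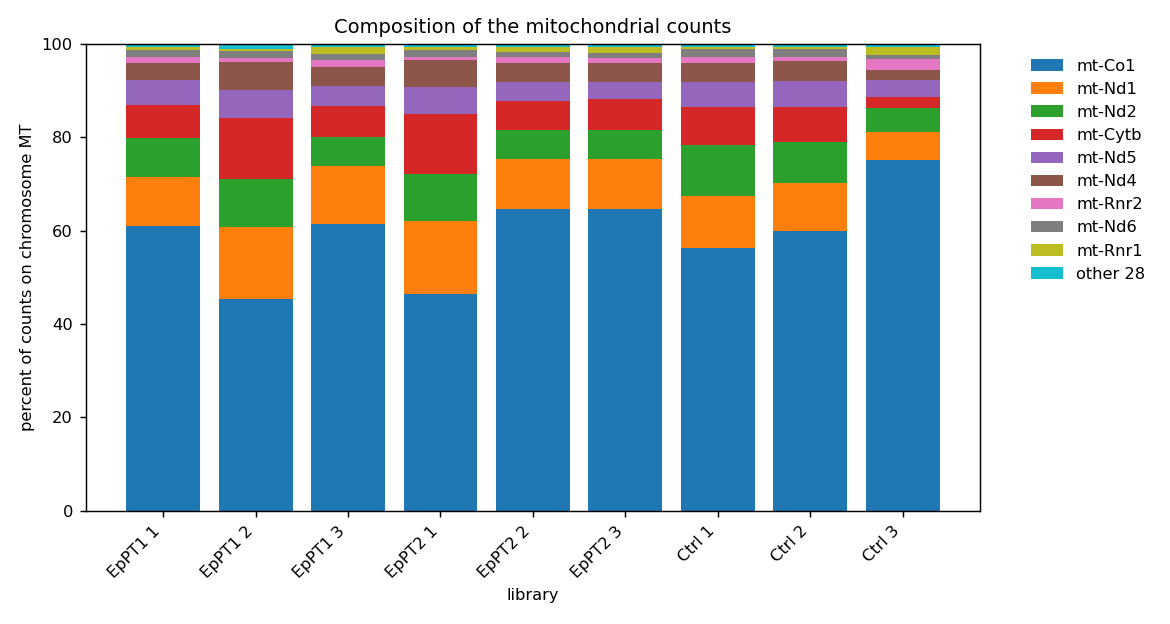
Percentage of the counts on chromosome MT taken by each of the 9 most counted genes and by the 28 others together (vertical axis) in each of the 9 libraries (horizontal axis). mt-Co1 fills 45.4% to 75.1% of a library, most in Ctrl 3.

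The ribosomal RNAs varied widely between libraries of 1 group. mt-Rnr1 (ENSMUSG00000064337, chromosome MT, 70 to 1024, plus strand), the RNA of the small ribosomal subunit, had 233, 112 and 1088 CPM in EpPT1, 162, 703 and 853 CPM in EpPT2 and 131, 146 and 1329 CPM in Ctrl. mt-Rnr2 (ENSMUSG00000064339, 1094 to 2675, plus strand), the RNA of the large subunit, had 421, 249 and 1192 CPM in EpPT1, 257, 689 and 830 CPM in EpPT2 and 379, 269 and 2079 CPM in Ctrl. The 4 libraries with the high mitochondrial share were the high ones for both RNAs, and the groups overlapped. Within Ctrl the highest library exceeded the lowest 10.1-fold for mt-Rnr1 and 7.74-fold for mt-Rnr2. The biological coefficient of variation, which is edgeR's estimate of the relative spread between replicates, was 82.0% for mt-Rnr1 and 66.0% for mt-Rnr2, against 39.3% as the common value of all genes.

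Of the protein genes, mt-Co1 (ENSMUSG00000064351, 5328 to 6872, plus strand) followed the same libraries. It had 20903, 11932 and 43302 CPM in EpPT1, 15111, 39196 and 46130 CPM in EpPT2 and 15858, 20866 and 62314 CPM in Ctrl. mt-Atp6 (ENSMUSG00000064357, 7927 to 8607, plus strand), a subunit of the proton channel of complex V, had 26.5, 27.3 and 101 CPM in EpPT1, 45.7, 70.3 and 71.8 CPM in EpPT2 and 21.5, 30.9 and 185 CPM in Ctrl. Ctrl 3 was the highest library for both genes, and the groups overlapped for both.

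mt-Nd1, mt-Nd6 and mt-Cytb had smaller coefficients of variation, 32.6%, 28.5% and 25.3%, than mt-Co1 at 52.4%. The complex I gene mt-Nd3, whose counts are shared with its copy, had 51.2%. mt-Nd1 (ENSMUSG00000064341, 2751 to 3707, plus strand), a membrane subunit of complex I, had 3604, 4058 and 8766 CPM in EpPT1, 5065, 6483 and 7658 CPM in EpPT2 and 3164, 3613 and 5112 CPM in Ctrl. mt-Nd6 (ENSMUSG00000064368, 13552 to 14070, minus strand) had 501, 390 and 786 CPM in EpPT1, 491, 658 and 783 CPM in EpPT2 and 448, 597 and 683 CPM in Ctrl. mt-Cytb (ENSMUSG00000064370, 14145 to 15288, plus strand), the cytochrome b of complex III, had 2446, 3479 and 4704 CPM in EpPT1, 4206, 3823 and 4712 CPM in EpPT2 and 2269, 2595 and 2063 CPM in Ctrl. For mt-Cytb every EpPT2 library lay above every Ctrl library, and EpPT1 1 lay inside the Ctrl range. mt-Nd2, a further complex I gene, spanned 1.64-fold between its lowest and highest of 9 libraries, with a coefficient of variation of 25.3%.

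**Figure D3:**
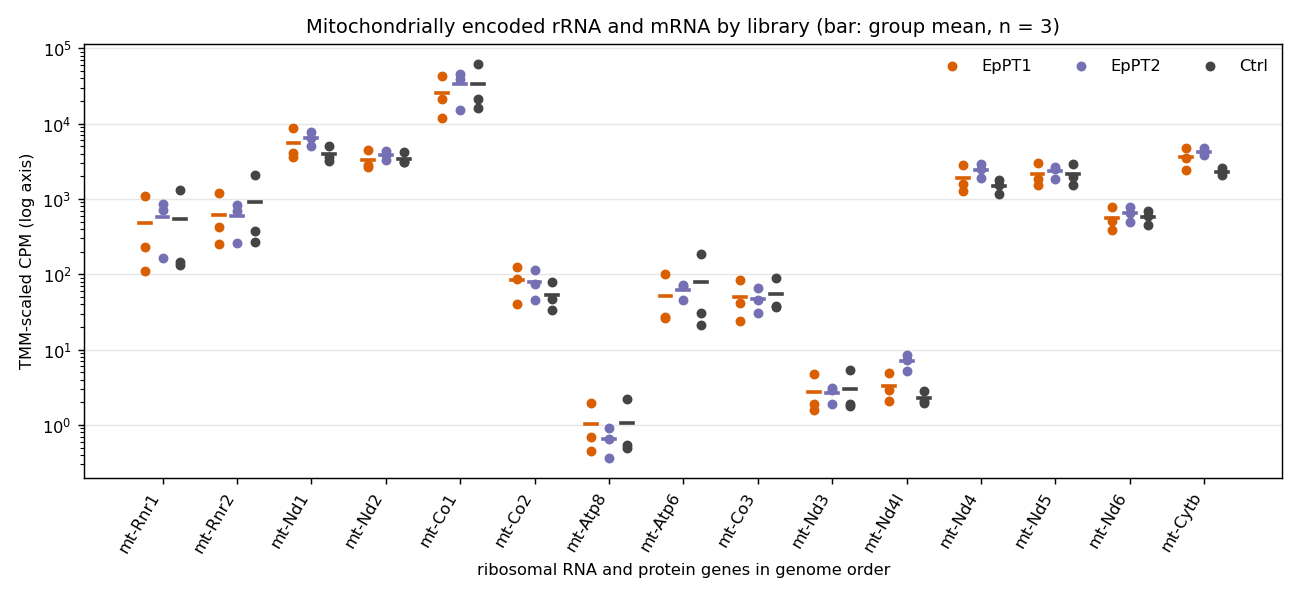
TMM-scaled CPM (vertical log axis) of the 2 ribosomal RNA and 13 protein genes in genome order in EpPT1, EpPT2 and Ctrl. Points are libraries and bars group means (n = 3); mt-Rnr1 spreads from 112 to 1088 CPM within EpPT1 alone, while mt-Cytb lies at 3823 to 4712 CPM in EpPT2 and 2063 to 2595 CPM in Ctrl.

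Of the 37 genes, 24 were abundant enough to test, namely both ribosomal RNAs, all 13 protein genes and 9 transfer RNAs. The filter asked for 0.633 CPM before TMM scaling in at least 3 libraries. mt-Ty reached this only in EpPT1 3, EpPT2 2 and EpPT2 3, and mt-Tw, the transfer RNA for tryptophan, only in 2 libraries of EpPT1 and 2 of EpPT2, so a higher level in exposed libraries was a condition of their being tested, and neither counts as support. Counts are therefore also given for the other 22.

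EpPT1 against Ctrl addresses the lower of the labelled fluences. None of the 24 passed edgeR's quasi-likelihood test at a Benjamini-Hochberg adjusted p under 0.05, where 0% of the 14471 genes tested were called. At an unadjusted p under 0.05 edgeR marked 1 of the 24, against 3.93% of all genes. DESeq2 called 0 of the 24 after adjustment, and 0.00693% of all genes. The groups were apart, with no overlap of libraries, for 0 of 24, against 5.26% of all genes. Log2 differences were positive for 11 and negative for 13, with a median of −0.02, the same as for all genes; without mt-Ty and mt-Tw, 9 of 22 were positive. The count at an unadjusted p under 0.05 depended on single libraries. Without EpPT1 1 it was 3 of the 24 and 13.3% of all genes (1980 of 14912), with mt-Cytb at an edgeR adjusted p of 0.176. It was 0 of the 24 without Ctrl 1 (2.38% of all genes), without EpPT1 2 (1.55%) and without EpPT1 3 (1.70%), and 2 of the 24 without Ctrl 3 (4.26%).

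The gene with the smallest p was mt-Cytb, with 3543 ± 1130 CPM in EpPT1 and 2309 ± 268 CPM in Ctrl (SD, n = 3 each) and thus a difference on the log2 scale of 0.62 (SE 0.25; edgeR adjusted p = 0.991). mt-Ty, the transfer RNA for tyrosine, came next at 2.17 (SE 1.18; edgeR adjusted p = 0.991), but rested on 1, 5 and 18 counts in EpPT1 and 0, 3 and 2 counts in Ctrl. Its Ctrl libraries were all at or under the floor of 3 counts, so the fitted value depends on the prior count. Differences were 0.47 (SE 0.35) for mt-Nd1, −0.04 (SE 0.30) for mt-Nd6, −0.38 (SE 0.61) for mt-Co1, −0.61 (SE 0.78) for mt-Atp6, −0.16 (SE 1.03) for mt-Rnr1 and −0.55 (SE 0.80) for mt-Rnr2, all on the log2 scale. The last 4 became positive without Ctrl 3, at 0.46 for mt-Co1, 0.98 for mt-Atp6, 1.78 for mt-Rnr1 and 0.93 for mt-Rnr2, and the median of the 24 became 0.54 with 21 positive. Without EpPT1 3 the median of the 24 was instead −0.35, with 7 positive.

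EpPT2 against Ctrl addresses the higher of the labelled fluences. None of the 24 passed edgeR's adjusted threshold, and 0% of all genes did. At an unadjusted p under 0.05 edgeR marked 4 of the 24, beside 12.2% of all genes. The 3 with positive differences were mt-Nd4l, mt-Cytb and mt-Ty, beside 6.88% of all genes, and the 1 with a negative difference was mt-Ts2, beside 5.31%. The groups did not overlap for 5 of 24, those 4 and mt-Nd4, beside 23.2% of all genes. Without mt-Ty and mt-Tw, 3 of 22 were marked and 4 of 22 did not overlap. The count marked, and its background, moved with single libraries: it was 5 of the 24 without EpPT2 2 (5.60% of all genes, 834 of 14880), 3 without EpPT2 3 (5.75%, 858 of 14930), 3 without Ctrl 1 (6.73%, 1004 of 14918) and 8 without Ctrl 3 (15.1%). Differences were positive for 16 and negative for 8, with a median of 0.15, against −0.03 over all genes; without mt-Ty and mt-Tw they were positive for 14 and negative for 8. By complex, 6 of 7 complex I genes, 2 of 3 complex IV genes and 0 of 2 complex V genes had positive values.

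mt-Nd4l (ENSMUSG00000065947, 9877 to 10173, plus strand), a small membrane subunit of complex I, had 2.08, 2.94 and 4.85 CPM in EpPT1, 5.24, 8.58 and 7.34 CPM in EpPT2 and 2.85, 1.97 and 2.10 CPM in Ctrl. Every EpPT2 library was above every other library, with the group means at 7.05 ± 1.69 CPM in EpPT2 and 2.31 ± 0.476 CPM in Ctrl (SD, n = 3 each). The log2 difference of EpPT2 from Ctrl was 1.61 (SE 0.41; edgeR adjusted p = 0.376). DESeq2, which called 61 of the 11356 genes to which it gave an adjusted p here (0.537%), gave mt-Nd4l 1.62 and an adjusted p of 0.0396, and over all alternatives its adjusted p ranged from 0.0396 to 0.942. With the counts of its identical nuclear copy Gm10222 added, the difference was 1.18 (SE 0.44). The gene rests on 86, 130 and 104 counts in EpPT2 and 46, 33 and 28 counts in Ctrl, and it shares 7 bases with the more abundant mt-Nd4.

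mt-Cytb averaged 4247 ± 446 CPM in EpPT2 and 2309 ± 268 CPM in Ctrl (SD, n = 3 each), or 0.88 higher in log2 units (SE 0.25; edgeR adjusted p = 0.376). It had no annotated nuclear copy. Differences were 0.69 (SE 0.35) for mt-Nd1, 0.16 (SE 0.30) for mt-Nd6, 0.02 (SE 0.61) for mt-Co1, −0.34 (SE 0.77) for mt-Atp6, 0.10 (SE 1.03) for mt-Rnr1 and −0.62 (SE 0.80) for mt-Rnr2 on the log2 scale. Without Ctrl 3, those of mt-Atp6 and mt-Rnr2 became 1.26 and 0.87, mt-Co1 and mt-Rnr1 stood at 0.86 and 2.04, and the median of the 24 was 0.86 with 21 positive.

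As shares of the mitochondrial counts, 7 of the 24 did not overlap between EpPT2 and Ctrl, beside 6.73% of all genes counted per mitochondrial count. For nuclear genes this ratio also carries the spread of the mitochondrial total, and in scaled CPM 23.2% of all genes did not overlap. The percentages of all genes in this paragraph are thus not a like-for-like background, and no excess is read from them. Without mt-Ty and mt-Tw this was 6 of 22. The 3 with higher shares were mt-Nd4l, mt-Ty and mt-Tl2, beside 4.19% of all genes, and the 4 with lower shares were mt-Co3, mt-Atp8, mt-Th and mt-Ts2, beside 2.54%. Their shares are small: mt-Co3, the largest of them, took 0.0953%, 0.0747% and 0.0922% in EpPT2, against 0.130%, 0.110% and 0.109% in Ctrl. Shares add up to a fixed total, so 1 gene's share also moves with that of mt-Co1. mt-Cytb, mt-Nd4 and all other tested genes overlapped on this scale, and EpPT1 and Ctrl overlapped for all 24, where 2.49% of all genes did not overlap. Between EpPT2 and EpPT1 the shares did not overlap for mt-Ts2 and mt-Atp8, both lower in EpPT2, beside 1.42% of all genes.

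EpPT2 and EpPT1 differed in the labelled fluence. edgeR and DESeq2 called none of the 24, nor any of all genes (0% with each), and edgeR marked 1 gene at an unadjusted p under 0.05, beside 0.214% of all genes. This was mt-Nd4l at 1.10 (SE 0.41; edgeR adjusted p = 1.00), and it was also the only 1 of the 24 whose groups did not overlap, beside 2.45% of all genes. With the copy Gm10222 added its value was 0.71, and the groups then overlapped. EpPT1 3 had 70 counts on mt-Nd4l and 197 on the copy, while EpPT2 1 had 86 and 112. mt-Ts2 had the next smallest p, with a log2 difference of −0.92 (SE 0.62; edgeR adjusted p = 1.00). Positive differences numbered 16 and negative ones 8, with a median of 0.21 against −0.01 over all genes. Without mt-Ty and mt-Tw, 14 of 22 were positive and 8 negative, with a median of 0.20. The values were 0.23 (SE 0.35) for mt-Nd1, 0.20 (SE 0.30) for mt-Nd6, 0.26 (SE 0.25) for mt-Cytb, 0.40 (SE 0.61) for mt-Co1, 0.28 (SE 0.77) for mt-Atp6, 0.26 (SE 1.03) for mt-Rnr1 and −0.07 (SE 0.80) for mt-Rnr2 on the log2 scale. Without EpPT1 3 the median was 0.57, and without EpPT1 2 it was 0.03. At an unadjusted p under 0.05 edgeR marked 4 of the 24 without EpPT1 3, beside 4.77% of all genes (709 of 14869), 1 without EpPT2 1 (1.22%), 1 without EpPT1 2 (0.450%) and 0 without EpPT1 1 (0.168%), EpPT2 2 (0.128%) or EpPT2 3 (0.114%).

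**Figure D4:**
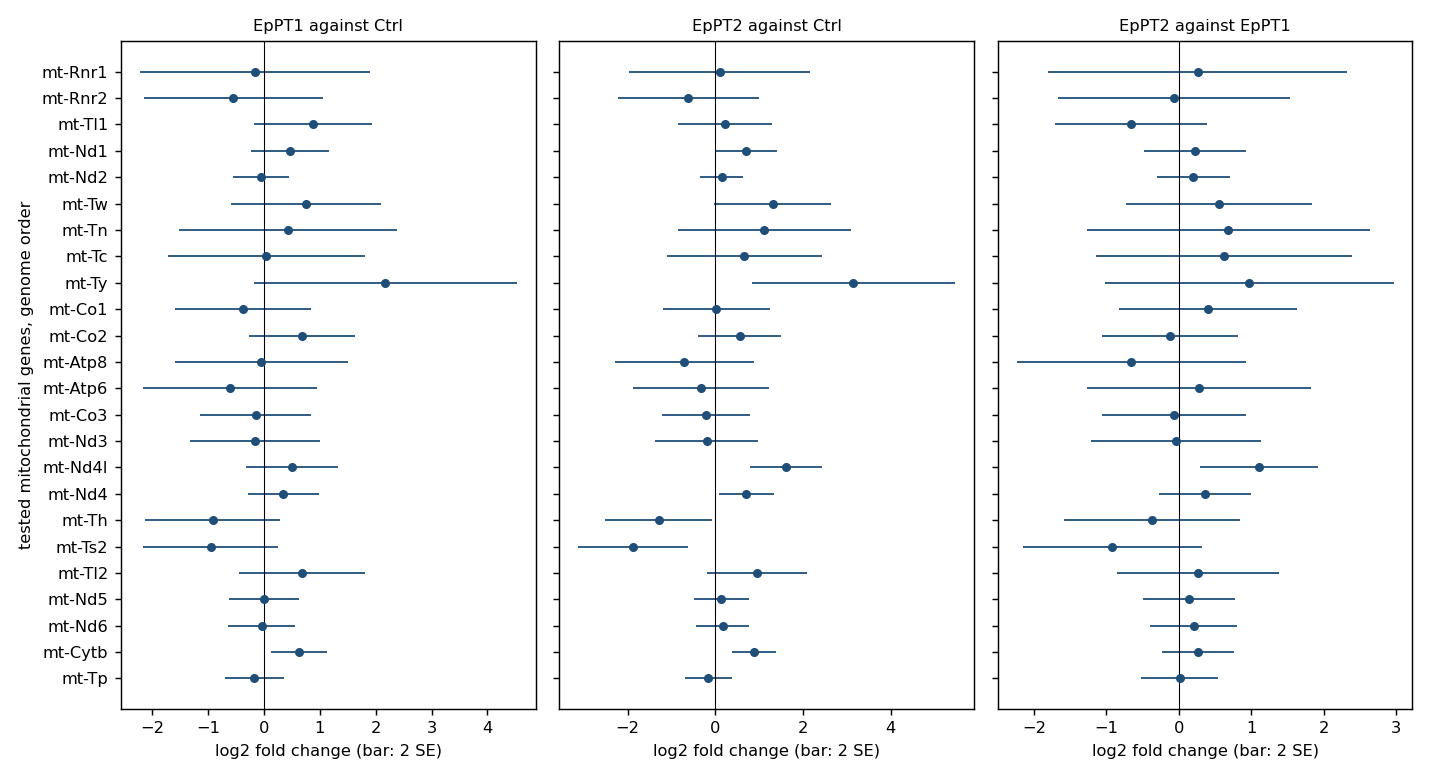
Log2 fold change of the 24 tested genes in genome order (points) with 2 standard errors to each side (bars) for EpPT1 against Ctrl, in EpPT2 against Ctrl and in EpPT2 against EpPT1; the horizontal scales differ between panels. mt-Rnr1 has bars of 2 times 1.03, mt-Cytb of 2 times 0.25, and mt-Nd4l in EpPT2 against Ctrl stands at 1.61; the first and second panels share the Ctrl libraries.

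In EpPT2 against Ctrl, 3 adjacent transfer RNA genes between mt-Nd4 and mt-Nd5 had log2 differences of −1.29 (SE 0.61) for mt-Th, −1.88 (SE 0.63) for mt-Ts2 and 0.95 (SE 0.57) for mt-Tl2. None passed the adjusted threshold, and differences between the 3 genes were not tested. mt-Th carries histidine, mt-Ts2 serine and mt-Tl2 leucine; their sequences are shown because mt-Th and mt-Ts2 follow each other without a gap and mt-Ts2 and mt-Tl2 share 1 base. Anticodons are in capitals and all lie on the plus strand (GENCODE release M21, GRCm38).
mt-Th (chrM:11546-11612): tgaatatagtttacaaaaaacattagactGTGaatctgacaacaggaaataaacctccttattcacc
mt-Ts2 (chrM:11613-11671): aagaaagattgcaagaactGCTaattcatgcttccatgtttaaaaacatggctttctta
mt-Tl2 (chrM:11671-11741): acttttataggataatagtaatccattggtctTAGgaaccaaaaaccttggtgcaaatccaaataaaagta

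mt-Ts2 had 8.25, 1.64 and 4.44 CPM in EpPT1, 1.95, 2.38 and 3.25 CPM in EpPT2 and 5.46, 5.92 and 16.5 CPM in Ctrl. mt-Tl2 had 2.94, 7.98 and 10.1 CPM in EpPT1, 5.73, 9.50 and 9.95 CPM in EpPT2 and 2.11, 3.17 and 7.81 CPM in Ctrl. For mt-Ts2 every EpPT2 library lay below every Ctrl library, where the edgeR adjusted p was 0.376, while the groups overlapped for mt-Tl2. Without the filter on low counts mt-Ts2 passed in edgeR, at −1.86 and an adjusted p of 0.0427, where 0.933% of all genes were called. That fit estimated the spread differently. The SE was 0.51 for mt-Ts2, against 0.63 with the filter, and 0.35 for mt-Rnr1, against 1.03. For mt-Nd4l it was larger, at 0.53 against 0.41. The ratio of mt-Ts2 to mt-Tl2 counts, chosen after the values were seen and given with no test, was 2.80, 0.206 and 0.441 in EpPT1, 0.340, 0.250 and 0.326 in EpPT2 and 2.59, 1.87 and 2.12 in Ctrl. mt-Th per mt-Tl2 gave 2.27, 0.206 and 0.372 in EpPT1, 0.426, 0.479 and 0.234 in EpPT2 and 2.50, 1.26 and 1.75 in Ctrl. Both ratios were above 1 in Ctrl and EpPT1 1 and below 1 in the other 5 libraries.

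Of 8 ratios computed, 2 more were also chosen after the values were seen, and so lend the pattern no support; both were lower in Ctrl and EpPT1 1 than in the other 5 libraries. Counts of mt-Tn, the asparagine transfer RNA, per count of mt-Rnr1 were 0.0377, 0.0948 and 0.0506 in EpPT1, 0.0706, 0.0658 and 0.0722 in EpPT2 and 0.0364, 0.0393 and 0.0336 in Ctrl. mt-Cytb per mt-Nd2 was 0.874, 1.30 and 1.07 in EpPT1, 1.29, 1.01 and 1.09 in EpPT2 and 0.743, 0.840 and 0.496 in Ctrl. EpPT1 1 lay within the Ctrl range of the first and just above that of the second. Other ratios did not divide the libraries in this way: mt-Rnr1 per mt-Rnr2 was 0.553, 0.449 and 0.913 in EpPT1, 0.630, 1.02 and 1.03 in EpPT2 and 0.347, 0.543 and 0.639 in Ctrl, and mt-Co1 per mt-Nd1 was 5.80, 2.94 and 4.94 in EpPT1, 2.98, 6.05 and 6.02 in EpPT2 and 5.01, 5.77 and 12.2 in Ctrl. Over all tested genes, the regression of log2 level on GC content had a slope of −0.51, 0.02 and 0.21 per 10 percentage points in EpPT1, 0.03, 0.13 and 0.12 in EpPT2 and −0.65, −0.38 and −0.39 in Ctrl, so that EpPT1 1 stood with Ctrl there too. Its part in these ratios was not tested. The ratio of mt-Nd6 to mt-Nd5, the overlapping pair on opposite strands, was 0.236 to 0.309 in all 9 libraries, with Ctrl 3 lowest and Ctrl 2 highest.

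**Figure D5:**
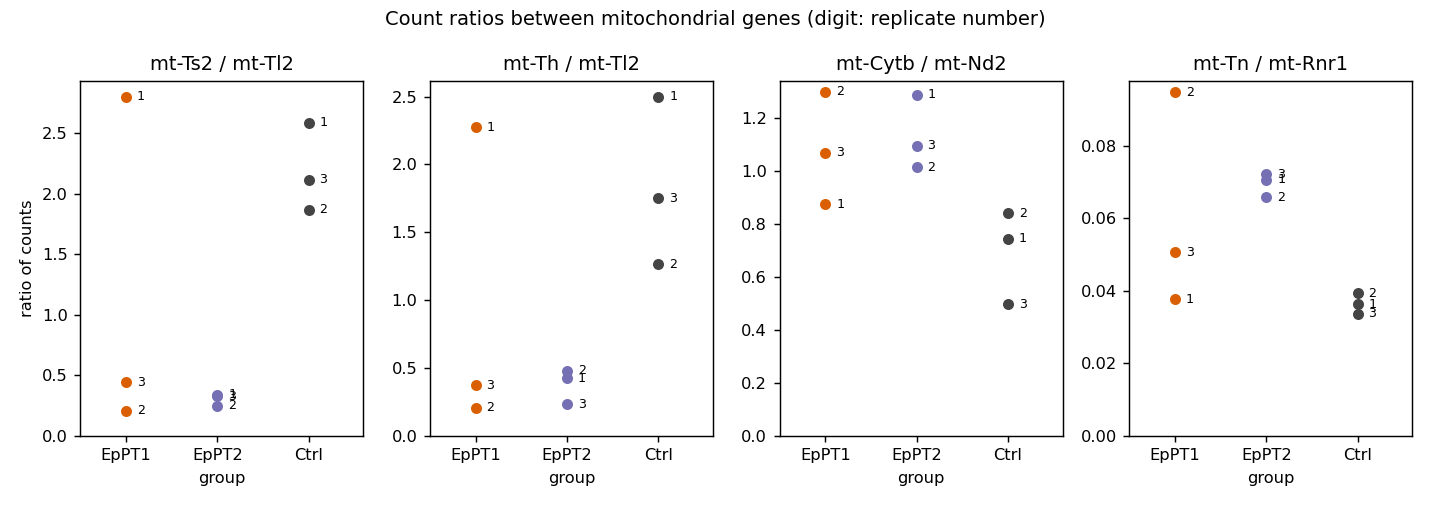
Ratios of counts (vertical axis, from 0) of mt-Ts2 and mt-Th to mt-Tl2, of mt-Cytb to mt-Nd2 and of mt-Tn to mt-Rnr1 in EpPT1, EpPT2 and Ctrl; each point is a library and carries its replicate number. EpPT1 1 lies with the Ctrl libraries in the mt-Ts2 panel (2.80 against 1.87 to 2.59), while the other exposed libraries lie at 0.206 to 0.441.

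Among the other transfer RNAs, mt-Tp, for proline, was the most counted, with 52.1 to 103 CPM and 1228 CPM per kb. It lies on the minus strand, at 15356 to 15422. mt-Tn and mt-Tc, for asparagine and cysteine, varied like the ribosomal RNAs: mt-Tn had 8.77, 10.6 and 55.1 CPM in EpPT1, 11.5, 46.3 and 61.6 CPM in EpPT2 and 4.78, 5.74 and 44.7 CPM in Ctrl, and mt-Tc ranged from 5.26 to 36.3 CPM. The libraries high for both were again EpPT1 3, EpPT2 2, EpPT2 3 and Ctrl 3. mt-Ty, beside mt-Tc, had 0.426, 1.32 and 1.34 CPM in EpPT2, on 7, 20 and 19 counts, and 0, 0.179 and 0.150 CPM in Ctrl, a fitted log2 difference of 3.15 (SE 1.16; edgeR adjusted p = 0.376) that again depends on the prior count.

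The 13 transfer RNAs that were too low to test had at most 1.12 CPM in any library. mt-Tf, mt-Ts1, mt-Tm and mt-Tg had 0 counts in all 9 libraries, a result that still permits 0.225 scaled CPM, the value of 3 counts, in Ctrl 3, where that limit is highest, with counting error alone considered. The 9 genes of the light strand, mt-Nd6 and 8 transfer RNAs, took 1.64% ± 0.230 of mitochondrial counts in EpPT1, 1.50% ± 0.248 in EpPT2 and 1.64% ± 0.525 in Ctrl (SD, n = 3 each), most of it from mt-Nd6. Without the strand setting, reads of a light strand gene and of precursor RNA from the opposite strand cannot be told apart.

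The nuclear genes that copy, transcribe and process this genome were read from a list of 49, of which 48 were in the table and tested. None passed edgeR's test in any comparison, where 0, 7 and 0 reached an unadjusted p under 0.05 in EpPT1 against Ctrl, in EpPT2 against Ctrl and in EpPT2 against EpPT1, beside 3.93%, 12.2% and 0.214% of all genes. The signs were 17 positive and 31 negative in EpPT1 against Ctrl (median −0.07), 12 and 36 in EpPT2 against Ctrl (median −0.25) and 10 and 38 in EpPT2 against EpPT1 (median −0.18), on the log2 scale, beside medians over all genes of −0.02, −0.03 and −0.01. EpPT2 held more of the libraries with a high mitochondrial share (EpPT1 3, EpPT2 2, EpPT2 3 and Ctrl 3) than either other group. Some listed genes ran with these libraries, in both directions. Tefm and Polg are examples picked after the values were seen, and the number of such genes was not counted. In the order just given, Tefm had 7.14, 3.83, 5.72 and 2.63 CPM, against 14.3 to 21.8 elsewhere. Polg had 198, 178, 175 and 179 CPM, against 74.3 to 110. Other listed genes overlapped, such as Fastkd3 with 23.1, 21.2, 25.5 and 24.1 CPM, against 22.2 to 28.3. The part of the uneven spread of these libraries over the groups in the signs was not tested. Polrmt, the mitochondrial RNA polymerase, had 19.0, 26.2 and 41.8 CPM in EpPT1, 28.1, 39.3 and 33.0 CPM in EpPT2 and 17.0, 21.5 and 16.9 CPM in Ctrl. Its log2 difference from Ctrl was 0.65 (SE 0.31; edgeR adjusted p = 0.991) in EpPT1 and 0.86 (SE 0.31; edgeR adjusted p = 0.376) in EpPT2, where the groups did not overlap, as for 23.2% of all genes. Trmt10c, a subunit of the nuclease that cuts the 5′ ends of mitochondrial transfer RNAs, had 30.4 ± 6.17 CPM in EpPT2 and 51.8 ± 8.57 CPM in Ctrl (SD, n = 3 each), a difference of −0.77 (SE 0.29; edgeR adjusted p = 0.376). Tbrg4, an RNA-binding protein of the FASTK family that stabilises mitochondrial messenger RNAs, gave 0.38 (SE 0.19; edgeR adjusted p = 0.991) in EpPT1 against Ctrl. In EpPT2 against EpPT1 the smallest p belonged to Mterf1b, of the transcription termination factor family, at −0.75 (SE 0.46), and Supv3l1, the RNA helicase of the mitochondrial degradosome, at −0.35 (SE 0.23), both with an edgeR adjusted p of 1.00.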

How the data were processed

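RNA of 9 HC11 libraries was sequenced, and the authors deposited raw counts per gene as 1 table, whose 9 columns carry the group and replicate of the titles. Bowtie 0.12.2 and the build mm8 are named, without further detail, in the submitters' processing notes. The coordinates equal those of GENCODE release M21 (GRCm38) for 53585 of 54495 gene IDs (98.3%) and for all 37 mitochondrial rows, so GRCm38 positions are given. No source used here names the counter. No column of another sample was present. The 3 groups of 3 came from the titles in the labels.

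The counts of all genes were tested with edgeR 4.0.16 in R 4.3.3, using TMM scaling, filterByExpr, 1 fit without a block (6 residual degrees of freedom), the two-sided quasi-likelihood test and Benjamini-Hochberg adjustment at 0.05. Of 28724 genes with a count, 14471 were tested. Precision is limited by 3 libraries per group. Shares are counts over all counts on chromosome MT. Copies were found as 50-base windows shared between mitochondrial and nuclear GENCODE transcripts; the 9 copies holding at least 20% of a gene's windows were counted. The genes and lists were chosen with earlier results of these data known, although position alone decided which rows belong to chromosome MT. Named genes were both ribosomal RNAs, a gene of each complex, mt-Nd6 and the 2 smallest p per comparison. From the machinery list, the 2 smallest p per comparison were named. Tefm, Polg and Fastkd3 were added after the values were seen. No pair of libraries agreed within sampling noise (lowest chi-square per gene 4.95, for EpPT2 2 and EpPT2 3). The next closest pairs crossed the groups. They were EpPT1 2 with EpPT2 1 (5.66), EpPT1 3 with EpPT2 2 (7.87) and EpPT2 3 (9.27), and Ctrl 2 with EpPT1 1 (15.1). The other pairs within a group had 52.1 to 163. Alternatives, with DESeq2 1.42.0 among them, are given in the closing section. The summed blood and immune markers are not reported here.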

Additional observations from a re-analysis of the deposited data

How the results depend on the processing

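The count of mitochondrial genes called stayed at 0 in EpPT1 against Ctrl and in EpPT2 against EpPT1 under all alternatives run. In EpPT2 against Ctrl it was 1 without the filter (mt-Ts2, −1.86, adjusted p = 0.0427) and 1 with DESeq2 (mt-Nd4l), and 0 otherwise. Over all genes, where edgeR called 0, leaving out the filter called 32, 268 and 2 genes and DESeq2 1, 61 and 0 in EpPT1 against Ctrl, in EpPT2 against Ctrl and in EpPT2 against EpPT1; without EpPT1 1, edgeR called 2 in EpPT2 against Ctrl. The cause was not tested.

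Sign changes in this section are given for the named genes of each comparison, not for all 24. Mitochondrial totals as library size moved the median of all genes to −0.32 in EpPT2 against Ctrl and −0.41 in EpPT2 against EpPT1. The sign then turned for mt-Rnr1 in EpPT1 against Ctrl (0.0908) and for mt-Co1 (−0.12) and mt-Nd6 (−0.16) in EpPT2 against Ctrl. In EpPT2 against EpPT1 it turned for mt-Nd1 (−0.0532), mt-Cytb (−0.0658) and mt-Nd6 (−0.14). Of all 24, positive differences went from 16 to 11 in EpPT2 against Ctrl and from 16 to 9 in EpPT2 against EpPT1. With the replicate number as a block, the sign of named genes turned for mt-Rnr1 in EpPT1 against Ctrl (0.13), mt-Atp6 in EpPT2 against Ctrl (0.36) and mt-Rnr2 in EpPT2 against EpPT1 (0.19). The block called 0 mitochondrial genes. Its lowest edgeR adjusted p was 0.743 in EpPT1 against Ctrl, 0.0990 in EpPT2 against Ctrl and 1.00 in EpPT2 against EpPT1. At an unadjusted p under 0.05, edgeR with the block marked 8 of the 24 in EpPT2 against Ctrl, beside 21.1% of all genes. The labels give no pairing, and the correlations do not settle it. Of 9 same-numbered pairs, 6 correlated above 0.1 (r from −0.64 to 0.73), and 4 of 9 libraries correlated best with their own number. A GC correction, chosen after seeing the data, turned mt-Rnr1 (0.27) and mt-Nd6 (0.29) in EpPT1 against Ctrl and mt-Atp6 (0.14) in EpPT2 against Ctrl. Adding the counts of nuclear copies, also chosen after seeing the data, turned mt-Atp6 in EpPT2 against Ctrl (0.36). The cause was not tested.

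Among the named genes of each comparison, leaving out each library in turn changed the sign of 15 fold changes. Signs of the other tested genes also changed. In EpPT1 against Ctrl, positive differences among all 24 went from 11 to 21 without Ctrl 3 and to 7 without EpPT1 3. In EpPT1 against Ctrl the values ran from −1.63 to 1.78 for mt-Rnr1, −1.44 to 0.93 for mt-Rnr2, −0.0475 to 0.69 for mt-Nd1, −1.01 to 0.46 for mt-Co1, −1.55 to 0.98 for mt-Atp6 and −0.37 to 0.16 for mt-Nd6; the lowest of each was without EpPT1 3, and the highest without Ctrl 3 except for mt-Nd1 (without EpPT1 1) and mt-Nd6 (without EpPT1 2). In EpPT2 against Ctrl they ran from −0.36 to 2.04 for mt-Rnr1, −1.05 to 0.87 for mt-Rnr2, −0.31 to 0.86 for mt-Co1, −0.78 to 1.26 for mt-Atp6 and −0.0023 to 0.32 for mt-Nd6, the first 4 highest without Ctrl 3. In EpPT2 against EpPT1 they ran from −0.20 to 1.73 for mt-Rnr1, −0.45 to 0.82 for mt-Rnr2, −0.00098 to 0.74 for mt-Nd1 and −0.0401 to 1.22 for mt-Atp6, all highest without EpPT1 3. mt-Cytb kept its positive sign in both comparisons with Ctrl, and mt-Nd4l in EpPT2 against Ctrl.

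The stricter filter left mt-Ty untested, and the table's gene lengths equal the spans, so length gave no alternative. Low counts limit mt-Ty and mt-Atp8.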
